A study of Homo sapiens with 6 samples.

Results

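The H/ACA small nucleolar RNAs (SNORA genes) and the small Cajal body RNAs (SCARNA genes) are short noncoding RNAs that are measured here in 2 human mantle cell lymphoma lines. Members were the table rows whose symbol starts with SNORA or SCARNA and a digit and whose mean over the 6 libraries was at least 1 FPKM, the unit of fragments scaled by transcript length and by the mapped fragments of the library. Of 25277 rows, 129 carried such a name and 108 passed, 84 SNORA and 24 SCARNA genes. The means just inside the limit were 1.04 FPKM for SNORA36B, 1.07 for SNORA16B and 1.09 for SCARNA11. Just outside lay SNORA46 at 0.980 and SNORA58 at 0.120, and the other 19 rows were listed at 0 in all 6 libraries.

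RNA came from Jeko and Rec-1 cells stably carrying a tet-on CRISPR/Cas9 vector, and all 6 libraries, controls included, had 48 h of doxycycline. Each line gave 1 control library with the empty vector and 1 library for each of 2 guide RNAs against NR4A1, labelled sgRNA 1 and sgRNA 2. The guides stand in for replicates, no library repeats a control, and nothing says that libraries came from separate cultures, so the p-values below measure only the spread between these libraries. The labels do not say whether a stable line is 1 clone. Below, 3 values of a line stand in the order control, guide 1, guide 2.

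H/ACA RNAs fold into a pair of hairpins joined by a hinge with the H box (the letters ANANNA) and closed by a tail that ends with an ACA box near the 3′ end. With the proteins dyskerin, NHP2, NOP10 and GAR1 they convert chosen uridines of other RNAs to pseudouridine, SNORA genes mostly in ribosomal RNA and SCARNA genes in the small nuclear RNAs of the spliceosome. Most lie in introns of host genes and are cut out of the spliced intron, and telomerase RNA (TERC) ends with the same kind of domain. Mature forms have no poly(A) tail.

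NR4A1, the targeted nuclear receptor gene, measured 5.99 FPKM in the control against 3.89 and 4.44 with guides 1 and 2 in Jeko. In Rec-1 it measured 11.6 against 27.4 and 12.7, so its mRNA was not lower there (limma adjusted p = 0.882 over both lines). The library labelled Rec-1 control resembled the Jeko control more than the other Rec-1 libraries. Over 11292 tested genes that are no member, its log2(FPKM + 1) values had a Pearson r of 0.944 with the Jeko control, 0.766 with Rec-1 sgRNA 1 and 0.772 with Rec-1 sgRNA 2, across genes that are no independent replicates. CCND1, the cyclin D1 gene that defines this lymphoma, was at 0.696 and 0.592 FPKM in the Rec-1 sgRNA libraries and at 442 to 815 in the other 4. The 6 B-cell markers summed to between 583 and 1032 FPKM in every library. The 4 T-cell markers, led by CD3D, summed to 102 and 120 FPKM in the Rec-1 sgRNA libraries and to between 2.69 and 5.68 elsewhere, though CD8A among them was at 0 in those 2 and at 0.251 to 0.582 elsewhere, 4 myeloid markers to between 0.573 and 2.60, and 3 erythroid markers to 0. The part that these differences between libraries play in the Rec-1 results was not tested, and values are therefore given by line.

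The sequences of members that the results turn on are printed from GRCh37 at the positions GENCODE v44lift37 gives, for those of the 82 members that could be placed. Capitals mark ANANNA matches in the middle of the RNA and an ACA within its last 6 bases. The first set holds 5 members that passed the sgRNA test below.
SNORA63: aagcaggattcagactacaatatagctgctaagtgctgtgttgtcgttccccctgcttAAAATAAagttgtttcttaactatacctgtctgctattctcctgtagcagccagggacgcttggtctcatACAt
SNORA48: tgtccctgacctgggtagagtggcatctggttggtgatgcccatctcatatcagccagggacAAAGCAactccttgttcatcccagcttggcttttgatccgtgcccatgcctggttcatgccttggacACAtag
SNORA34: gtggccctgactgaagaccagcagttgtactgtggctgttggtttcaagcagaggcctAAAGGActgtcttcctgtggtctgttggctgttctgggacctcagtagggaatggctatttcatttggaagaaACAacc
SNORA37: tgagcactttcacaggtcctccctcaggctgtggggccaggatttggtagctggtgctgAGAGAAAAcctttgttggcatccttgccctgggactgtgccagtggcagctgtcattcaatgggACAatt
SCARNA1: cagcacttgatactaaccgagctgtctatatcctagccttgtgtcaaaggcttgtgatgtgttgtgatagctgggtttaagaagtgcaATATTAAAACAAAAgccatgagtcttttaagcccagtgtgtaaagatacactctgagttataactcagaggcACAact

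SNORA63 lies at chr3:186505089-186505220 on the plus strand in an intron of EIF4A2 and SNORA48 at chr17:7478031-7478165 (plus) in an intron of EIF4A1. SNORA34 lies at chr12:49048165-49048301 (minus) in an intron of KANSL2. SNORA37 lies at chr18:51748654-51748782 (minus) in an intron of MBD2, and SCARNA1 at chr1:28160912-28161077 (plus) in an intron of PPP1R8. GENCODE lists 13 entries named SNORA63 and 13 named SNORA48, and the entry printed is the one that matches RefSeq in chromosome and length. How the authors' counting treated these copies is not given. The second set holds 3 guides of ribosomal RNA that did not pass that test.
SNORA33: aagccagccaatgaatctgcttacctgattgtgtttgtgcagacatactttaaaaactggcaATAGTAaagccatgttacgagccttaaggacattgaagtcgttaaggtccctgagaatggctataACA
SNORA70: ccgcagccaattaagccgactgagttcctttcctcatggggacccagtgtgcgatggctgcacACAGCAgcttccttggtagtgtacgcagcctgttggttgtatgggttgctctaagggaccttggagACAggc
SNORA10: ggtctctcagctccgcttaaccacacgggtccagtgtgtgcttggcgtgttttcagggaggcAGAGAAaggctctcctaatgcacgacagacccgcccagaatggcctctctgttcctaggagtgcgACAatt

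These are SNORA33 at chr6:133138358-133138487 (plus) in RPS12, SNORA70 at chrX:153628622-153628756 (plus) in RPL10 and SNORA10 at chr16:2012335-2012467 (minus) in RPS2, all in introns, and 30 entries carry the name SNORA70. The third set shows the near-identical SNORA7 pair and 3 of the SNORA71 family, whose reads can be split between copies.
SNORA7A: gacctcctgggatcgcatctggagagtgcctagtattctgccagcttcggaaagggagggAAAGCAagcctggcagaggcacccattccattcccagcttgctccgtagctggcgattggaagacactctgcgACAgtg
SNORA7B: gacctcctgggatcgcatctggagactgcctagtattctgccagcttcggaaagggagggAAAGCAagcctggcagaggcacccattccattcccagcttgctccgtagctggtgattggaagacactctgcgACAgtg
SNORA71A: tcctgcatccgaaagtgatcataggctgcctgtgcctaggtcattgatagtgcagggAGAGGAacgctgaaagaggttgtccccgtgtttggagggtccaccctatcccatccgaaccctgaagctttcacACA
SNORA71C: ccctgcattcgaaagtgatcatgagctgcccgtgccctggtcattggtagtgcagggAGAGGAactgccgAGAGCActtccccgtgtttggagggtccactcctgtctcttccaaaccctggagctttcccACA
SNORA71D: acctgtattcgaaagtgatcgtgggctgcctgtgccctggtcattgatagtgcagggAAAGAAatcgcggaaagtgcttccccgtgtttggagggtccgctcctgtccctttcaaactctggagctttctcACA

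SNORA7A (chr3:12881811-12881949, minus) and SNORA7B (chr3:129116053-129116191, minus) are identical at 137 of 139 aligned bases, or 98.6%. SNORA71A (chr20:37055952-37056085), SNORA71C (chr20:37058313-37058446) and SNORA71D (chr20:37062508-37062641), all on the minus strand within SNHG17, share between 82.4% and 85.8% of aligned bases. An ACA in the last 6 bases was found in 58 of 65 placed SNORA members (89.2%) and in 12 of 12 placed SCARNA members of the H/ACA type. It was found in 1 of 5 other placed SCARNA members, which include the C/D type. The same letters ended 11.0% of windows of equal length 300 bases upstream and 3.5% of 227 C/D box SNORD genes. Both boxes stood in 81.5% of placed SNORA members and 6.1% of the upstream windows. The ANANNA match alone separates little, since 57.3% of the windows held one, and only the strand of the gene was read.

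Members rested on few fragments in the controls. A single fragment of an RNA this short is worth between 5.26 and 7.77 FPKM, more for the shorter ones, at the depth of the Jeko control. This was read off the lowest values that small noncoding RNAs of equal RefSeq length share, members included. On that scale 96.5% of 173 values under 10 fragments lay within 0.1 of a whole number. Member values that set the scale lie at 1 by construction and are counted in this share. For the 66 members with such an estimate the fragments summed to 210 in the Jeko control, 1400 and 907 with the Jeko guides, 274 in the control of Rec-1 and 1964 in Rec-1 sgRNA 2. No estimate was possible for Rec-1 sgRNA 1. In the Jeko control 42 of the 66 stood at 0 or 1 fragment, and in the Rec-1 control 30. Intervals given for these estimates are exact Poisson intervals at 95% and cover counting error only.

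**Figure D1:**
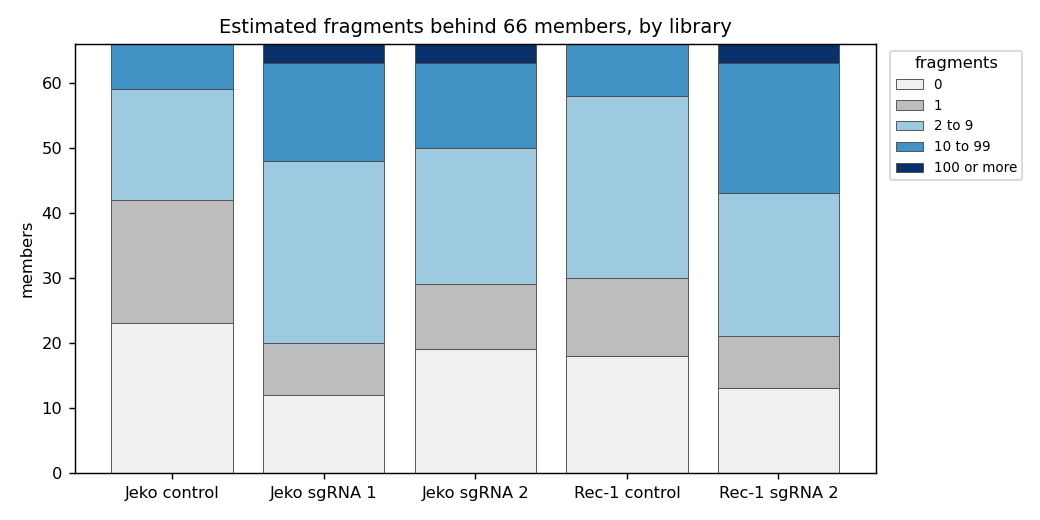
Number of the 66 members (y axis) by estimated fragments (colours) in 5 libraries (x axis). In the Jeko control 23 members had 0 and 19 had 1 fragment, and no member reached 100, while 3 did in each of the 3 sgRNA libraries shown.

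Members as a group were higher in the sgRNA libraries of both lines. They summed to 1855 FPKM in the Jeko control and to 12787 and 6854 FPKM in Jeko sgRNA 1 and 2. In Rec-1 the sums were 2112 FPKM in the control and 17869 and 24099 FPKM with the guides. As a share of all FPKM they went from 0.180% and 0.192% in the 2 controls to between 0.602% and 2.45%. The 4 sgRNA libraries all lay above both controls, and both Rec-1 sgRNA libraries above both Jeko sgRNA libraries. The median member was at 6.0 FPKM (control), 22.2 and 12.2 in the Jeko libraries, and at 7.18 FPKM (control), 37 and 42.4 in the Rec-1 libraries.

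Some other RNAs without a poly(A) tail were also higher. RMRP, the RNA of the RNase MRP enzyme, was at 74.6 FPKM (control), 2302 and 1422 FPKM in Jeko, and 173 FPKM (control), 2529 and 6494 FPKM in Rec-1 (limma log2 difference 4.56, SE 0.42, adjusted p = 0.0304). RPPH1, the RNA of RNase P, went from 11.8 to 289 and 131 FPKM in Jeko and from 27.0 to 682 and 1145 in Rec-1 (4.46, SE 0.45, limma adjusted p = 0.0388). Of 11 RNAs on that list 6 were in the table, and RNY4, VTRNA1-2 and VTRNA1-3 were listed at 0 throughout. The 256 SNORD rows, the C/D box class, held 2.77% (control), 2.73% and 1.78% of all FPKM in the Jeko libraries and 2.60% (control), 4.27% and 3.65% in the Rec-1 libraries. The 72 replication histone genes, whose mRNAs also lack the tail, summed to 230 FPKM (control), 1018 and 1016 in the Jeko libraries, but to 1728 (control), 927 and 1601 in the Rec-1 libraries. The part of library make-up in the members' values was not tested. In bulk libraries fewer cells that hold an RNA and less RNA per cell cannot be told apart.

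A few RNAs held much of the signal. The 5 highest members held 35.6% of the members' sum in the Jeko control and 30.9% in the Rec-1 control, against 51.4% to 52.9% in the 4 sgRNA libraries. SNORA70 led both controls, at 207 and 232 FPKM, and SNORA63 led all 4 sgRNA libraries.

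SNORA63, a guide of 28S rRNA with the highest mean level, was at 66.8 FPKM (control), 3308 and 1598 FPKM in Jeko, and 82.8 FPKM (control), 3975 and 6366 FPKM in Rec-1. Every sgRNA library was far above both controls. Its estimated fragments were 11 (interval 5.49 to 19.7) in the Jeko control, 475 and 290 with the guides, 15 in the Rec-1 control and 720 in Rec-1 sgRNA 2. The limma difference between sgRNA and control libraries over both lines was 5.50 on the log2(FPKM + 1) scale (SE 0.39, adjusted p = 0.015).

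**Figure D2:**
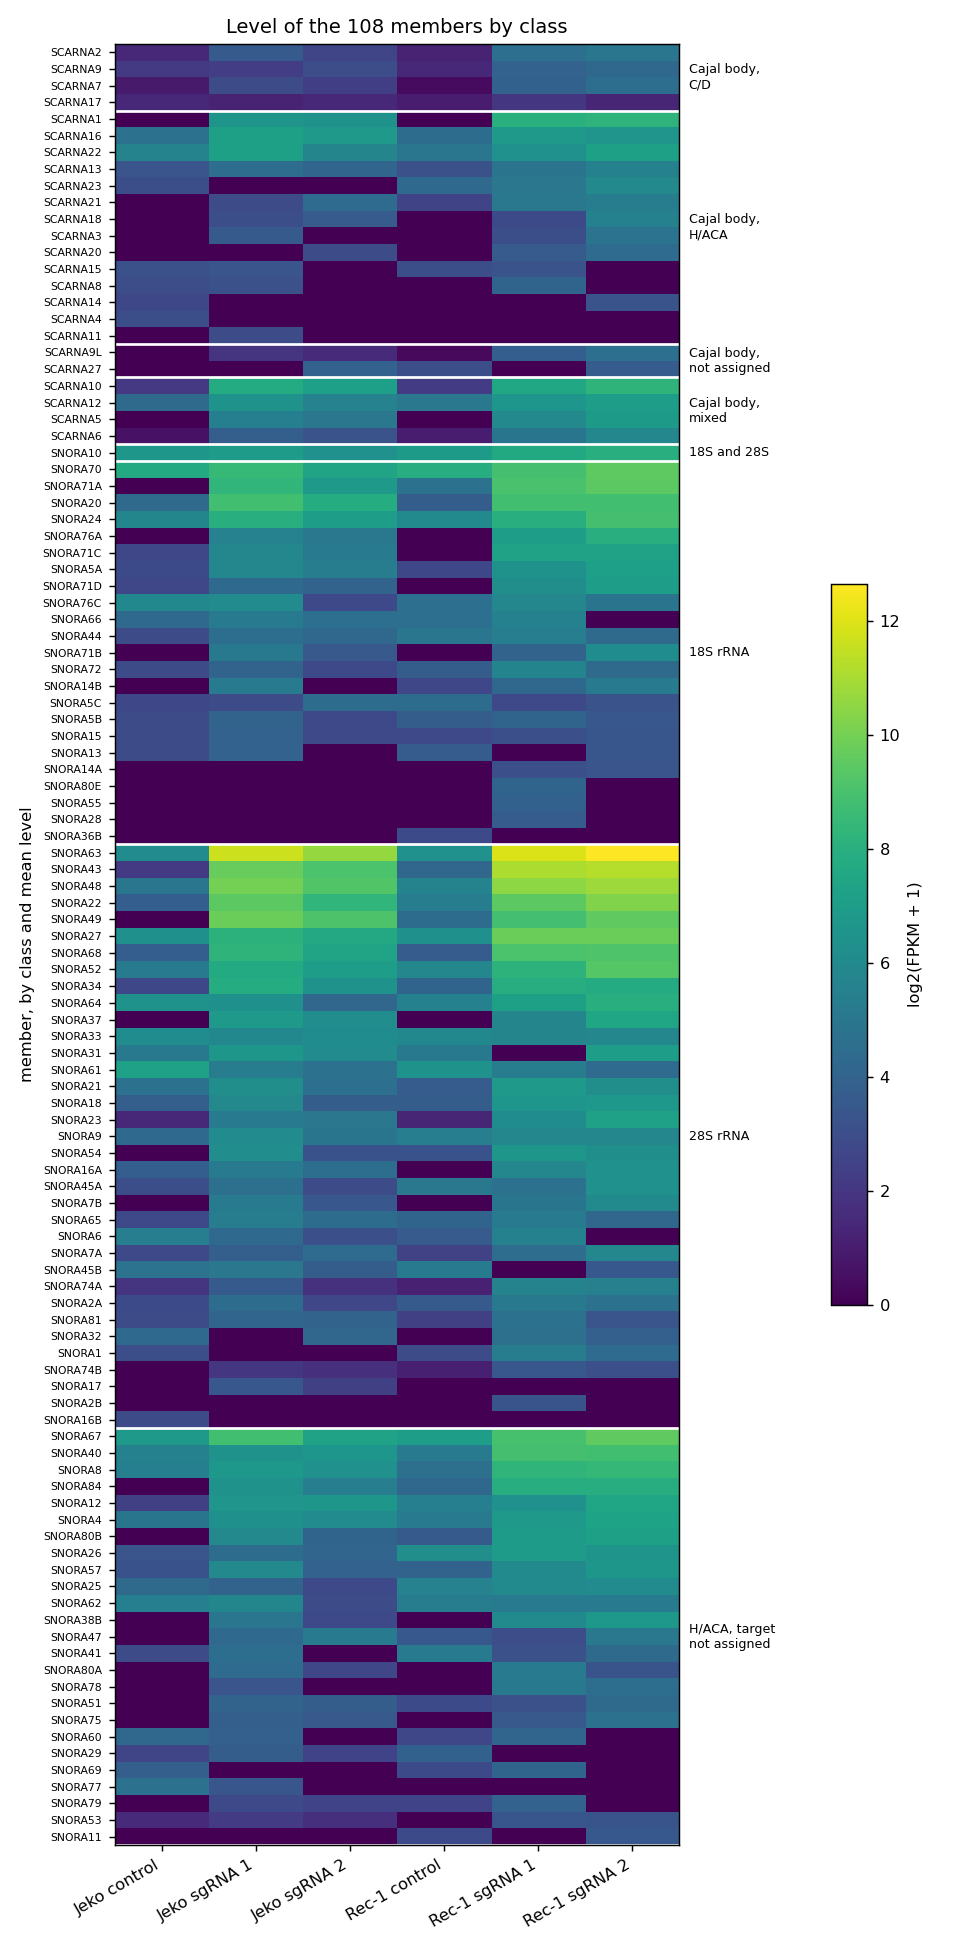
Level of each of the 108 members (rows, by class and then mean) in the 6 libraries (columns), coloured by log2(FPKM + 1). The controls are dark for most members, and the upper rows of the 28S rRNA class, led by SNORA63, are brightest in the sgRNA libraries.

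Over both lines, limma on log2(FPKM + 1) with the line as covariate passed 14 of the 108 members at an adjusted p under 0.05, and all 14 rose. Among all 11400 tested genes 21 rose, or 0.184%, so 14 of these 21 were members. The share of members was 13%. At an unadjusted p under 0.05 there were 60 members (55.6%), against 21.1% of all tested genes, and 84 of 108 had a positive difference. The median difference was 1.73 over the members and 0.01 over all tested genes. The count depended on single libraries: 42 members (40 higher, 2 lower) passed without the Jeko control, 6 without Jeko sgRNA 1, 7 without Jeko sgRNA 2, 6 (4 higher, 2 lower) without the Rec-1 control, 2 without Rec-1 sgRNA 1 and 5 without Rec-1 sgRNA 2. Without the Jeko control 2180 of all 11400 tested genes passed (19.1%), against 28 with all libraries, and between 11 and 51 passed without any 1 of the other 5. A member that was high only with the guides could pass the limit of 1 FPKM through them. The mean of the controls was under 1 FPKM at 25 of 108 members and the mean of the sgRNA libraries at 3. Over all 11400 tested genes these numbers were 704 and 185. The limit thus did not act alike on members and on all tested genes. Counts and shares of members, here and below, describe only the members that passed.

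Targets are assigned from background knowledge. Of the 35 members that guide 28S rRNA, 7 rose. SNORA43, a name that 5 annotated copies share, was at 3.43 FPKM (control), 829 and 527 FPKM in Jeko, and 17.2 FPKM (control), 2160 and 2393 FPKM in Rec-1. The groups were far apart in both lines. Its difference of 7.09 (SE 0.24, limma adjusted p = 0.000751) passed in 12 of 12 alternative analyses. SNORA48 was at 30.4 FPKM (control), 1031 and 595 FPKM in Jeko, and 49.7 FPKM (control), 1454 and 1759 FPKM in Rec-1. Its difference was 4.81 (SE 0.27, limma adjusted p = 0.00526), and it passed in 9 of 12 alternatives.

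SNORA22, which has 4 annotated copies, was at 12.5 FPKM (control), 703 and 318 FPKM in Jeko, and 39.8 FPKM (control), 707 and 1221 FPKM in Rec-1. SNORA68 was at 12.9 FPKM (control), 296 and 164 FPKM in Jeko, and 11.7 FPKM (control), 540 and 573 FPKM in Rec-1. SNORA34 was at 5.73 FPKM (control), 222 and 88.3 FPKM in Jeko, and 15.6 FPKM (control), 237 and 217 FPKM in Rec-1. In each of the 3 the lowest sgRNA library was several times above the higher control. Their limma differences were 4.82, 4.72 and 4.08, with adjusted p of 0.0255, 0.0259 and 0.0388. SNORA37 was listed at 0 in both controls and at 109, 72.8, 52.4 and 170 FPKM in Jeko sgRNA 1 and 2 and Rec-1 sgRNA 1 and 2 (6.53, SE 0.49, limma adjusted p = 0.0163). A difference from controls at 0 depends on the pseudocount and is no fold change.

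Of the 23 members that guide 18S rRNA, 2 rose. SNORA20 was at 19.9 FPKM (control), 442 and 229 FPKM in Jeko, and 12.1 FPKM (control), 445 and 455 FPKM in Rec-1 (4.52, SE 0.39, limma adjusted p = 0.0255). SNORA76A was listed at 0 in both controls and at 47.3 and 32.1 FPKM with the Jeko guides and 130 and 249 FPKM with those of Rec-1 (6.41, SE 0.56, limma adjusted p = 0.0259). Both were clear of the controls in every sgRNA library. Of 25 SNORA members with no target assigned here, 1 rose. That member, SNORA75, was at 0 in both controls and at 13.1, 10.4, 10.6 and 25 FPKM with the guides, and its call (3.89, SE 0.37, limma adjusted p = 0.0313) rests on an estimated 2 fragments in each Jeko sgRNA library and 3 in Rec-1 sgRNA 2.

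**Figure D3:**
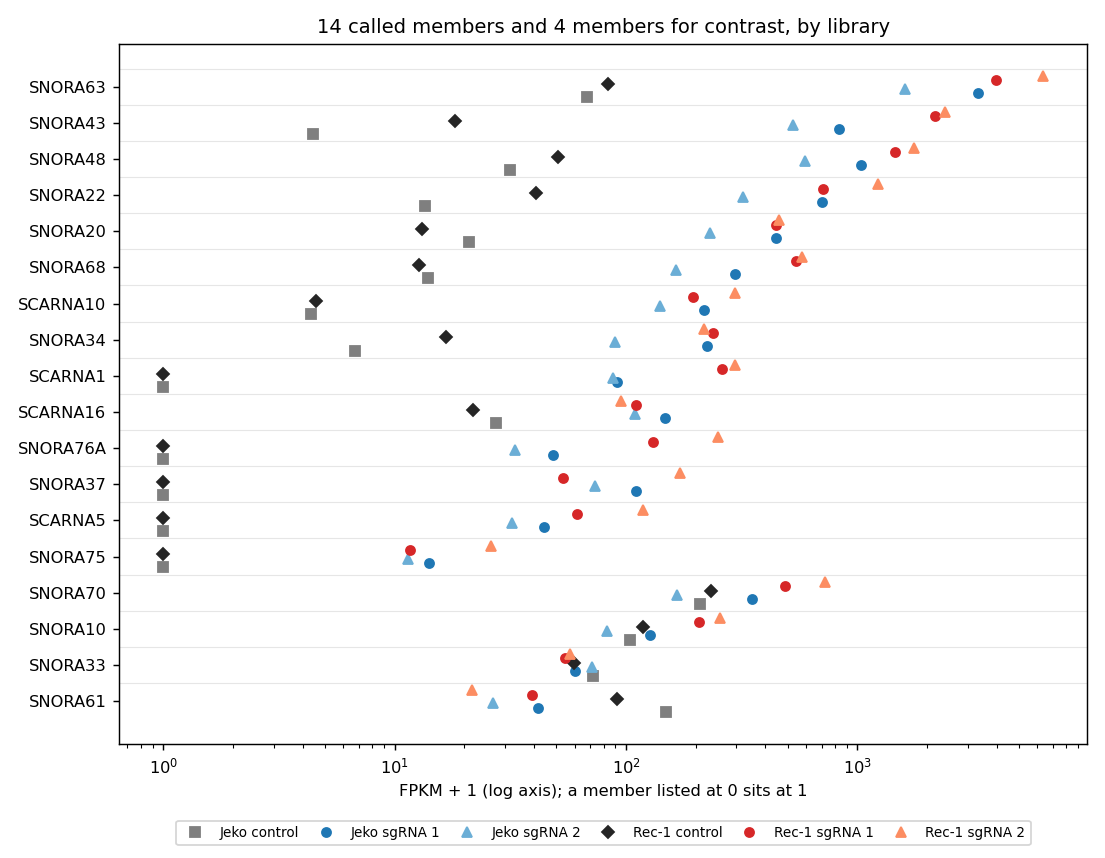
FPKM + 1 on a log axis (x) in each of the 6 libraries (symbols) for the 14 members that rose and 4 for contrast (rows). In the upper 14 rows all 4 sgRNA libraries lie right of both controls, in SNORA33 the 6 libraries overlap and in SNORA61 the order is turned.

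Among the Cajal body RNAs, 4 of 24 rose. SCARNA1, an H/ACA guide of U2 snRNA, was listed at 0 in both controls, at 90.6 and 86.5 FPKM with the Jeko guides and at 259 and 294 FPKM with those of Rec-1 (7.30, SE 0.39, limma adjusted p = 0.00441). SCARNA10, which carries both box types and guides U5 snRNA, was at 3.34 FPKM (control), 217 and 139 FPKM in Jeko, and 3.58 FPKM (control), 193 and 294 FPKM in Rec-1 (5.52, SE 0.29, limma adjusted p = 0.00441). These calls held in 11 of 12 alternatives each. SCARNA5, also a mixed guide of U5, was at 0 in both controls, at 43.4 and 31.3 FPKM with the Jeko guides and at 60.1 and 117 FPKM with those of Rec-1 (5.83, SE 0.40, limma adjusted p = 0.0135). SCARNA16, a guide of U1 snRNA with 5 annotated copies, moved least: 26.3 FPKM (control), 146 and 108 FPKM in Jeko, and 20.8 FPKM (control), 109 and 94.5 FPKM in Rec-1 (2.22, SE 0.21, limma adjusted p = 0.0305). The 10 called members other than SNORA43, SNORA48, SCARNA1 and SCARNA10 passed in between 4 and 6 of 12 alternatives.

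By box type, the 4 mixed Cajal body RNAs were 2-fold or more above the own-line control in all 4 comparisons. The other 2 of them are SCARNA12 (19.8 FPKM in the Jeko control, 87.9 and 48.2 with the guides, 31.8 in the Rec-1 control, 98.1 and 136 with the guides) and SCARNA6 (0.545, 13.1, 8.40, 0.991, 28.8 and 56.3 FPKM in the same order). SCARNA6 shares the host ATG16L1 with SCARNA5. The 4 C/D type RNAs had low FPKM, with medians of 1.70 and 1.14 in the Jeko and Rec-1 controls. Their RefSeq lengths run from 330 to 421 bases, and 1 fragment of a longer RNA is worth fewer FPKM. Low FPKM at these 4 RNAs need not mean few fragments. Of these SCARNA2, a guide of U2, was at 1.61 FPKM in the Jeko control, 10.9 and 5.20 with the guides, and at 1.30 in the Rec-1 control, 23.9 and 30.2 with the guides (2.66, limma adjusted p = 0.168). SCARNA7, a guide of U1, was at 0.910, 6.6 and 4.12 FPKM in Jeko and 0.276, 14.2 and 22.5 FPKM in Rec-1. SCARNA9, a guide of U2, was at 3.36, 3.85 and 7.03 FPKM in Jeko and 1.64, 14.6 and 18.4 FPKM in Rec-1, and the related SCARNA9L was at 0, 2.76 and 1.94 FPKM in Jeko and 0.243, 12.7 and 23.3 FPKM in Rec-1. SCARNA17, a guide of U4, stayed between 0.972 and 2.94 FPKM in all 6 libraries. The controls and the sgRNA libraries thus overlap at SCARNA17 but not at SCARNA2, SCARNA7, SCARNA9 or SCARNA9L.

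Among the 14 Cajal body RNAs of the H/ACA type 2 rose, SCARNA1 and SCARNA16, and 6 of the 14 were above 0 in the Rec-1 control. SCARNA22 was at 49.8, 143 and 52.7 FPKM in the Jeko control, guide 1 and guide 2, and at 30.2, 81.9 and 145 in the Rec-1 libraries in that order. SCARNA13, a guide of U2 and U5, was at 9.18, 21.6 and 16.6 FPKM in Jeko and 7.79, 28.3 and 46.5 FPKM in Rec-1. SCARNA21, a guide of U12, was at 0, 6.38 and 20.2 FPKM in Jeko and 5.06, 32.5 and 40.5 FPKM in Rec-1. None of these 3 passed over both lines. SCARNA18 was at 0 in both controls and at 7.17, 11.4, 6.12 and 45.5 FPKM in the sgRNA libraries. SCARNA3 (0, 10.8, 0, 0, 7.20 and 27.4 FPKM over the 6 libraries in the order used above) and SCARNA20 (0, 0, 6.41, 0, 11.5 and 20.6) were seen in 3 sgRNA libraries each. The rest were seen at low levels in few libraries. SCARNA8 and SCARNA15, guides of U2, stood between 6.85 and 15.9 FPKM in 3 and 4 libraries and at 0 in the others. SCARNA14 was at 5.73 in the Jeko control and 8.34 in Rec-1 sgRNA 2, SCARNA4 was at 7.30 in the Jeko control alone and SCARNA11 at 6.57 in Jeko sgRNA 1 alone. SCARNA27, with no box type assigned here, was at 14.6 FPKM in Jeko sgRNA 2, 7.30 in the control of Rec-1 and 11.7 in Rec-1 sgRNA 2.

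Telomerase RNA, which shares the H/ACA domain, had low FPKM. Its fragments were not estimated, and low FPKM need not mean few fragments. TERC was at 0.157 FPKM (control), 0.359 and 0.426 FPKM in Jeko, and 1.14 FPKM (control), 2.84 and 2.73 FPKM in Rec-1 (0.55, SE 0.29, limma adjusted p = 0.303). Each sgRNA library lay above its own control, and the Rec-1 control above both Jeko sgRNA libraries. The 12 tested genes for proteins of H/ACA RNA assembly, function and trimming were tested as well. By limma 0 of the 12 passed for the sgRNA effect (0.246% of all tested genes did) and 0 for the interaction with the line (6.94% did). At an unadjusted p under 0.05 there were 1 (8.33%) and 0, against 21.1% and 21.9% of all tested genes, and a list this short cannot be set apart from those shares. Their differences lay between -0.65 and 0.05 with a median of -0.34. DKC1, the gene of the pseudouridine synthase dyskerin, was at 107, 115 and 101 FPKM in Jeko and 102, 55.3 and 71.9 FPKM in Rec-1. GAR1, a core protein, had the lowest difference (63.8, 49.9 and 37.9 FPKM in Jeko and 60.1, 29.1 and 42.2 FPKM in Rec-1, limma adjusted p = 0.22). WRAP53, which takes these RNAs to Cajal bodies, was at 24.9, 19.4 and 15.1 FPKM in Jeko and 19.5, 16.3 and 14.4 FPKM in Rec-1.

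Within Jeko, where the 3 libraries do not share the CCND1 difference described above, 48 members were at least 2-fold above the control with both guides and 9 were below. These are 44.4% and 8.33% of the members, against 1.89% and 1.15% of all tested genes. In Rec-1, 62 members (57.4%) were above and 5 (4.63%) below, against 11.9% and 11.4% of all tested genes. In all 4 comparisons 40 members were above (37%) and 1 below, against 0.868% and 0.377% of all genes. Comparisons within a line share 1 control library and have no replicate of it. A pseudocount of 10 FPKM, more than 1 fragment, left 29 above and 2 below in Jeko. The median member differed by 1.64 and 0.91 from its control with the Jeko guides and by 2.32 and 2.42 with those of Rec-1, against values between -0.02 and 0.00 over all tested genes. Over the members above 0 in the control the median was 1.27 and 0.44 for Jeko (73 members), 1.69 and 2.03 for Rec-1 (78 members).

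**Figure D4:**
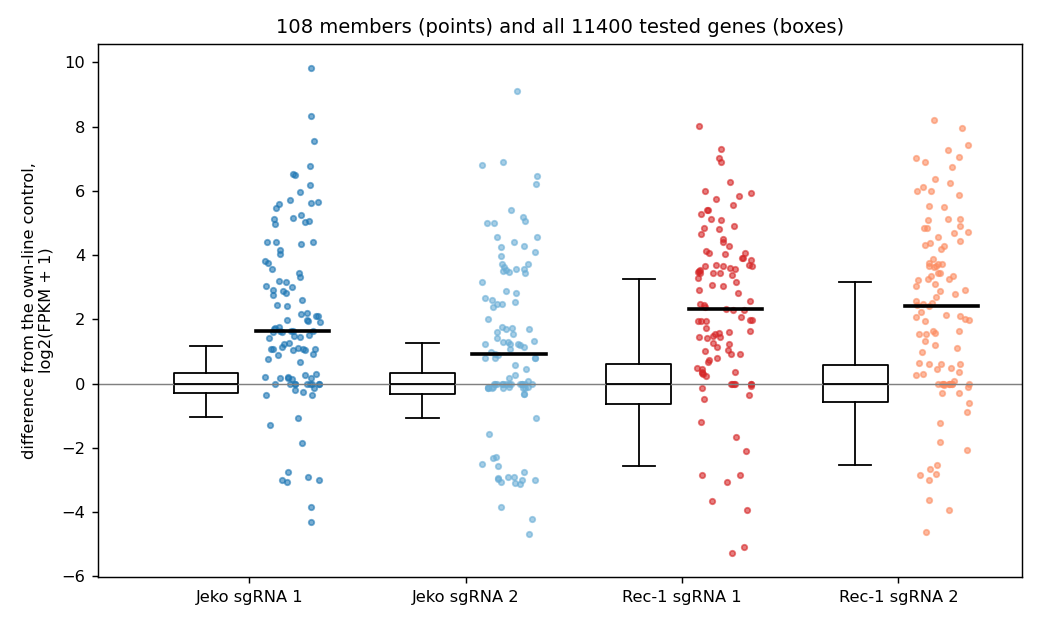
Difference from the own-line control on the log2(FPKM + 1) scale (y) in the 4 sgRNA libraries (x), for the members (points, thick line at the median) and all tested genes (boxes from the lower to the upper quartile, whiskers over the central 95%). The members' medians lie at 1.64, 0.91, 2.32 and 2.42, and points below 0 occur in every library.

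Without regard to line, all 4 sgRNA libraries lay above both controls at 51 members (47.2%, against 17.0% of tested genes) and below both at 1 (0.926%, against 16.3%). That 1 member is SNORA61, a 28S rRNA guide hosted by SNHG12. It was at 148 FPKM (control), 40.5 and 25.6 FPKM in Jeko, and 90.0 FPKM (control), 38.3 and 20.6 FPKM in Rec-1. The groups do not overlap, and estimated fragments were 21 (interval 13 to 32.1), 5 and 4 in Jeko and 14 in the Rec-1 control and 2 in Rec-1 sgRNA 2. The difference of -1.91 (SE 0.34) missed the threshold over both lines (limma adjusted p = 0.16).

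SNORA33, another guide of 28S rRNA, was the flattest member. It was at 70.9 FPKM (control), 59.1 and 70.2 FPKM in Jeko, and 58.6 FPKM (control), 53.3 and 56.3 FPKM in Rec-1. Its largest difference from a control was 0.26 on the log2 scale, and its values overlap between groups (-0.12, SE 0.18, limma adjusted p = 0.699). SNORA10, assigned to both 18S and 28S rRNA, was at 103, 126 and 81.9 FPKM in Jeko and 117, 206 and 253 FPKM in Rec-1. SNORA70, a guide of 18S rRNA, was at 207, 348 and 165 FPKM in Jeko and 232, 484 and 725 FPKM in Rec-1 (0.78, SE 0.43, limma adjusted p = 0.308). In both the Jeko libraries overlap and both Rec-1 sgRNA libraries are higher than all others.

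Of the 10 members with the highest mean, 5 did not pass. SNORA49, a guide of 28S rRNA hosted by EP400, was listed at 0 in the Jeko control with 900 and 545 FPKM for its guides, and Rec-1 stood at 20.8 FPKM (control), 467 and 742 FPKM. A floor of 3 fragments in the Jeko control is 17.2 FPKM, and the guides were 52.3-fold and 31.7-fold above that floor. The 95% interval for 0 fragments reaches 3.69, so these folds are no lower bounds. Over both lines limma gave 7.11 (SE 1.04, adjusted p = 0.127). SNORA71A was likewise at 0 in the Jeko control and at 319 and 111 FPKM with the guides, 19.1-fold and 6.66-fold above a floor of 3 fragments. It was at 25.3 (control), 510 and 688 in the Rec-1 libraries. SNORA27, a guide of 28S rRNA hosted by RPL21, was at 80.3 FPKM in each control, at 276 and 197 with the guides in Jeko and at 883 and 888 in Rec-1. SNORA67 was at 115, 447 and 156 FPKM in Jeko and 130, 502 and 750 FPKM in Rec-1. All 4 sgRNA libraries lay above both controls at SNORA49, SNORA71A, SNORA27 and SNORA67.

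Members that came near the threshold were higher with every guide than in the controls as well. SNORA23, a 28S rRNA guide hosted by IPO7, was at 1.69, 34.9 and 30.7 FPKM in Jeko and 1.54, 70 and 148 FPKM in Rec-1 (4.49, limma adjusted p = 0.055). SNORA5A, an 18S rRNA guide hosted by TBRG4, was at 6.26, 57.4 and 39.7 FPKM in Jeko and 5.69, 85.1 and 137 FPKM in Rec-1 (3.39, limma adjusted p = 0.0677). SNORA84 was at 0, 88.7 and 40.9 FPKM in Jeko and 17.6, 236 and 235 FPKM in Rec-1 (4.8, limma adjusted p = 0.0831). SNORA74B, a 28S rRNA guide, was low throughout, at 0, 2.96 and 2.34 FPKM in Jeko and 1.17, 9.72 and 7.52 FPKM in Rec-1 (2.0, limma adjusted p = 0.0688). In all of these the sgRNA libraries lie above both controls. The same holds for SNORA52 of RPLP2, at 37.5, 208 and 131 FPKM in Jeko and 56.9, 282 and 628 FPKM in Rec-1. SNORA24 of SNHG8, an 18S rRNA guide, was at 54.8, 251 and 131 FPKM in Jeko and 62.3, 245 and 479 FPKM in Rec-1. Its lowest sgRNA library was thus above its higher control.

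Copies and relatives of 1 name differed in level. Of the pair printed above, SNORA7A was at 5.93, 13.4 and 20.1 FPKM in Jeko and 4.69, 21.6 and 57.3 FPKM in Rec-1, and SNORA7B was at 0 in both controls and at 37.2, 9.81, 28.9 and 63 FPKM with the guides. Neither passed (limma adjusted p = 0.177 and 0.0978), and with 98.6% identical bases the split of reads between them is uncertain. SNORA71B was at 0 in both controls and at 33.8, 10.7, 15.4 and 68.7 FPKM with the guides, below SNORA71A in each. SNORA5B, a copy of SNORA5A with 89.6% identical bases, was at 6.65, 15.2 and 6.03 FPKM in Jeko and 12.1, 15.8 and 9.68 FPKM in Rec-1. SNORA5C, in the same host, was at 5.73, 6.57 and 20.8 FPKM in Jeko and 20.8, 5.89 and 8.34 FPKM in Rec-1. Both overlap between groups where SNORA5A does not. SNORA38B was at 0 in both controls and at 30.5, 6.03, 63.1 and 106 FPKM with the guides. SNORA80B of ODC1 was at 0, 60.9 and 16.1 FPKM in Jeko and 10.8, 126 and 146 FPKM in Rec-1, while SNORA80E was seen in Rec-1 sgRNA 1 alone, at 15.6 FPKM. SNORA14B was at 0, 34.8 and 0 FPKM in Jeko and 5.52, 17.4 and 35.4 FPKM in Rec-1.

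Other members overlapped between groups. SNORA64 of RPS2 was at 87.6, 78.9 and 17 FPKM in Jeko and 45.5, 144 and 246 FPKM in Rec-1. SNORA62 of RPSA was at 43.5, 54 and 6.58 FPKM in Jeko and 39.5, 37.7 and 36.9 FPKM in Rec-1. SNORA6, in the same host, was at 41.2, 18.9 and 7.47 FPKM in Jeko and 11.2, 46.4 and 0 FPKM in Rec-1. In these 3 the lowest Jeko value is that of guide 2. SNORA45B of RPL27A was at 27.4, 31.4 and 12.4 FPKM in Jeko and 37.4, 0 and 9.98 FPKM in Rec-1. SNORA31 of TPT1, a 28S rRNA guide, was at 33.2, 102 and 66.4 FPKM in Jeko and 33.3, 0 and 132 FPKM in Rec-1, so 1 listed 0 sets its mean difference of -0.14. SNORA66 of RPL5 was likewise at 0 in 1 Rec-1 sgRNA library and at 45.5 FPKM in the other. SNORA77 was seen in the Jeko control (24.9 FPKM) and Jeko sgRNA 1 (9.51 FPKM) alone. SNORA44 was at 6.65, 22.9 and 18.1 FPKM in Jeko and 30.2, 41.9 and 19.4 FPKM in Rec-1, and SNORA25 of TAF1D at 19.9, 15.2 and 6.03 FPKM in Jeko and 48.3, 62.2 and 67.7 FPKM in Rec-1. In both the Rec-1 control lies above both Jeko sgRNA libraries.

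Some members were lower with Jeko sgRNA 2 than in the other 3 sgRNA libraries. SNORA21 of RPL23 was at 25.8, 73.9 and 23.4 FPKM in Jeko and 11.7, 113 and 75.1 FPKM in Rec-1. SNORA18, another 28S rRNA guide, was at 13.3, 61 and 12.1 FPKM in Jeko and 12.1, 98.2 and 106 FPKM in Rec-1. In both, the FPKM of Jeko sgRNA 2 lay slightly below that of the Jeko control, but the estimated fragments were equal. They were 4 in each of these 2 libraries for SNORA21 and 2 in each for SNORA18. SNORA54 of NAP1L4 was at 0, 71.1 and 8.04 FPKM in Jeko and 8.06, 101 and 77.4 FPKM in Rec-1. SNORA57 was at 8.24, 61.4 and 14.9 FPKM in Jeko and 15 (control), 65.8 and 102 FPKM in Rec-1. SNORA12 of CWF19L1 was high with both Jeko guides, at 4.34, 94.5 and 102 FPKM in Jeko and 43.4, 82.6 and 177 FPKM in Rec-1.

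The 8 other members above 0 in all 6 libraries did not pass either. Of the 28S rRNA guides, SNORA9 of SNHG15 was at 19.3, 66.5 and 29.2 FPKM in Jeko and 41.0, 57.5 and 56.3 FPKM in Rec-1, and SNORA65 of RPL12 at 5.90, 40.6 and 21.4 FPKM in Jeko and 16.1, 36.3 and 17.2 FPKM in Rec-1. SNORA65 lay above both controls in all 4 sgRNA libraries, SNORA9 in 3 of them. SNORA45A of RPL27A was at 7.07, 24.3 and 6.41 FPKM in Jeko and 32.1, 24.9 and 82.3 FPKM in Rec-1. SNORA74A was at 2.77, 11.1 and 2.51 FPKM in Jeko and 1.26, 49.9 and 44.3 FPKM in Rec-1, and SNORA2A of KANSL2 at 6.07, 20.9 and 5.51 FPKM in Jeko and 11.0, 34.0 and 26.5 FPKM in Rec-1. In these 3 the groups overlap, and Jeko sgRNA 2 was below both controls in FPKM in SNORA45A and SNORA2A. At SNORA2A the Jeko control and Jeko sgRNA 2 each held an estimated 1 fragment. Of the 18S rRNA guides, SNORA72 of RPL30 was at 6.65, 15.2 and 6.03 FPKM in Jeko and 12.1, 51.1 and 19.4 FPKM in Rec-1. SNORA76C was at 58.0, 66.5 and 5.85 FPKM in Jeko and 23.4, 56.9 and 28.2 FPKM in Rec-1, and SNORA15 of CCT6A at 6.45, 14.8 and 5.85 FPKM in Jeko and 5.86, 7.44 and 9.39 FPKM in Rec-1. These 3 overlap between groups as well.

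Guide 1 gave the higher member values in Jeko. Of 108 members 42 were at least 2-fold lower with guide 2 than with guide 1 in Jeko and 5 were at least 2-fold higher, against 1.79% and 2.89% of all tested genes, and the median difference was -0.64. In Rec-1 20 members were 2-fold higher and 16 lower with guide 2, against 1.81% and 2.07% of tested genes, with a median of 0.24. Over both lines limma passed 0 members for guide 2 against guide 1 (0.0175% of tested genes passed), with 10 members (9.26%) at an unadjusted p under 0.05, against 2.25% of tested genes. Between the 2 controls, 28 members were at least 2-fold higher and 15 lower in the Rec-1 than in the Jeko control. These compare with 1.68% and 0.833% of tested genes, and the median was 0.00. In each of these comparisons 1 estimated fragment against 0 counts as 2-fold or more, as at SNORA36B and SNORA16B between the controls. Of 66 members 42 in the Jeko and 30 in the Rec-1 control stood at 0 or 1 estimated fragment. The counts thus include counting error, which was not separated.

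The difference from the control itself differed between the lines at 13 members, or 12%, against 6.94% of tested genes. Among the 791 tested genes that passed, the signed difference was higher in Rec-1 for 420 and lower for 371. Among the 13 members it was higher for 11 and lower for 2. For SCARNA4 and SNORA16B, among the 11, it was 0.00 in Rec-1 and negative in Jeko. Only the 2 guides of a line give the spread in this test. The count was 8 without Jeko sgRNA 1, 5 without Jeko sgRNA 2 and 5 with a pseudocount of 10. With that pseudocount 3.96% of all tested genes passed. SNORA40 was at 46.6, 89.1 and 98.7 FPKM in Jeko and 35.3, 472 and 453 FPKM in Rec-1 (interaction 2.68, limma adjusted p = 0.0219). SNORA8 was at 43.3, 105 and 83.4 FPKM in Jeko and 24.6, 307 and 338 FPKM in Rec-1 (2.56, limma adjusted p = 0.0347). Both lie within the span of the TAF1D gene, and in both the Rec-1 sgRNA libraries stand alone. SNORA71C was at 5.56, 57.4 and 35.3 FPKM in Jeko and 0, 155 and 154 FPKM in Rec-1, and SNORA71D at 5.56, 19.1 and 15.1 FPKM in Jeko and 0, 75.6 and 130 FPKM in Rec-1. SNORA16A was at 12.5, 35.9 and 22.7 FPKM in Jeko and 0, 56.0 and 82.0 FPKM in Rec-1. These 3 interactions rest on a control value of 1 or 2 estimated fragments in Jeko and 0 in Rec-1. SNORA49 had a smaller difference in Rec-1 (-4.70, limma adjusted p = 0.0347), with its controls at 0 and 4 estimated fragments.

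SCARNA23, a guide of U6 snRNA, was at 7.07 FPKM in the Jeko control and 0 with both guides, and at 19.3 (control), 31.2 and 61.7 in the Rec-1 libraries. SNORA1 was at 7.07 FPKM in the Jeko control and 0 with both guides, and at 6.43 (control), 39.2 and 20.6 in the Rec-1 libraries. At both the Jeko control held an estimated 1 fragment. SNORA14A was at 0 in all libraries except Rec-1 sgRNA 1 and 2, with 7.39 and 9.11 FPKM. The value in Rec-1 sgRNA 2 was an estimated 1 fragment. SNORA53 was at 1.98, 3.78 and 2.39 FPKM in Jeko and 0, 9.45 and 8.63 FPKM in Rec-1. At SCARNA4, SNORA16B and SNORA36B all 4 sgRNA libraries were at 0 and 1 control held all the signal (7.30, 6.45 and 6.23 FPKM), an estimated 1 fragment for the last 2. Their interaction is therefore the difference between the controls.

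Without the controls, 24 members (22.2%) differed between the sgRNA libraries of the lines, against 25.9% of tested genes, so the share was near the background. Among the 2947 tested genes that passed, 1460 were higher in Rec-1 and 1487 lower, and of the 24 members 22 were higher. The count was 6 without Jeko sgRNA 2, 10 without Rec-1 sgRNA 1 and 11 without Rec-1 sgRNA 2. Called members that had also risen over both lines were SNORA43 (1.78, limma adjusted p = 0.0218), SCARNA1 (1.63, limma adjusted p = 0.00886) and SNORA76A (2.18, limma adjusted p = 0.0316). SNORA26 was at 21.0 and 16.6 FPKM with the Jeko guides and 125 and 93.4 FPKM with those of Rec-1, with 9.17 and 75 in the respective controls (2.47, limma adjusted p = 0.00732). SNORA17 was at 9.81 and 4.19 FPKM in the Jeko sgRNA libraries and 0 in all Rec-1 libraries, and SNORA29 at 12.1 and 4.77 in the Jeko and 0 in the Rec-1 sgRNA libraries. These are the 2 members that were lower in Rec-1. SNORA29 held an estimated 2 and 1 fragments with Jeko guides 1 and 2 and 0 in Rec-1 sgRNA 2, and SNORA17 had no estimate.

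A member was often at 0 somewhere: 51 members were above 0 in all 6 libraries and 8 in a single one. In both controls 20 were at 0, and 10 of these were above 0 in all 4 sgRNA libraries. In all 4 sgRNA libraries 3 were at 0, namely SCARNA4, SNORA16B and SNORA36B. The limit was set on the mean over all 6 libraries, so a member at 0 in both controls passed only through its sgRNA values. The 4 sgRNA libraries also weigh more in that mean than both controls. The counts of 20 and 3 therefore cannot be compared directly. In Jeko 7 members were at 0 in all 3 libraries. In Rec-1 5 were at 0 in all 3, namely SCARNA11, SCARNA4, SNORA16B, SNORA17 and SNORA77. The number at 0 went from 35 in the Jeko control to 16 and 23 with the guides and from 30 in the Rec-1 control to 13 and 18. A listed 0 can also be a failed estimate. How often tested genes in general were at 0 in these groups was not counted.

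A host gene in the table was found for 93 members, and 91 had 1 tested host, 69 genes in all. In GENCODE v44lift37, 63 member and host pairs were intronic in every basic transcript that spans the member, 7 touched an exon in some of them and 1 in all. The 6 other pairs are the members within the TAF1D gene, which no basic transcript spans. Of 71 tested hosts limma passed 0 for the sgRNA effect, with 13 (18.3%) at an unadjusted p under 0.05, near the 0.246% and 21.1% of all tested genes. The median difference from the control, as the mean of both guides, was 1.32 for the members and 0.00 for the hosts in Jeko, and 2.02 and -0.15 in Rec-1. The member's difference was above that of its host at 71 of 91 in Jeko and 72 of 91 in Rec-1. Members of 1 host share it and are no independent points. Of the 35 members 2-fold or more higher in all 4 comparisons with 1 host, 21 had a host within 2-fold of its control in all 4.

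Neighbours in 1 host could differ widely. EIF4A2, a translation initiation factor gene at 205, 191 and 189 FPKM in Jeko and 177, 207 and 179 FPKM in Rec-1, holds SNORA63, SNORA4 and SNORA81. Mean differences from the control in Jeko were 5.08, 1.32 and 1.19 for the 3 RNAs and -0.11 for the host, and in Rec-1 5.91, 1.83 and 1.68 against 0.13. SNORA4 was at 28.6, 78.8 and 67.5 FPKM in Jeko and 36.4, 110 and 158 FPKM in Rec-1. SNHG12, a noncoding host at 31.2, 10.4 and 12.7 FPKM in Jeko and 38.3, 20.8 and 21.9 FPKM in Rec-1, holds SNORA61, SNORA44 and SNORA16A. In Jeko these 3 differed by -2.17, 1.48 and 1.13, in Rec-1 by -1.64, -0.08 and 6.10. SNHG17, at 40.0, 19.0 and 17.5 FPKM in Jeko and 61.4, 23.1 and 20.8 FPKM in Rec-1, was lower with the guides while SNORA71A, SNORA71B, SNORA71C and SNORA71D within it were all 2-fold or more higher in all 4 comparisons. In TCP1, SNORA20 differed by 3.93 in Jeko and by 5.11 in Rec-1, and SNORA29 by 0.47 and -3.94. The 6 members within the span of TAF1D, outside its basic transcripts, had mean differences between -3.01 and 1.10 in Jeko and between 0.42 and 4.28 in Rec-1, against 0.04 and 0.87 for the host.

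**Figure D5:**
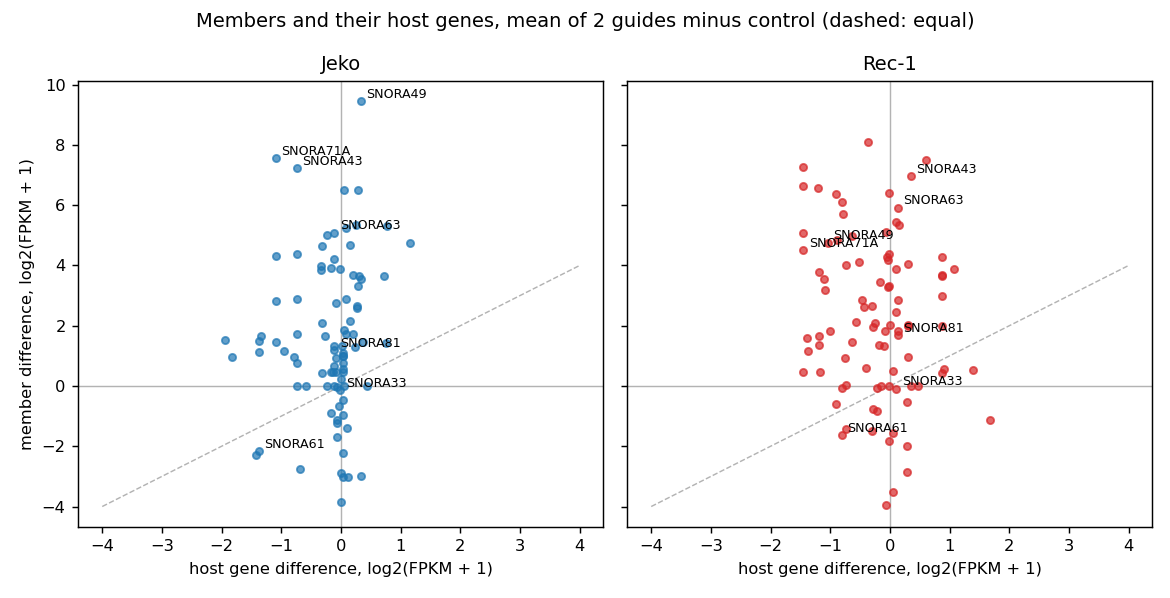
Difference of each member (y) against that of its host gene (x), both as the mean of the 2 guides minus the own-line control on the log2(FPKM + 1) scale, for 91 members in Jeko (left) and Rec-1 (right). Most points lie above the dashed line of equal difference (71 and 72 of 91), SNORA61 lies below it and SNORA33 near the origin.

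The pattern most like that of SNORA43, the member with the smallest p for the sgRNA effect, was sought among all tested genes by the Pearson correlation of log2(FPKM + 1) over the 6 libraries. The 3 highest were SNORD15B (0.999), a C/D box RNA at 8.92, 1824 and 999 FPKM in Jeko and 40.5, 3306 and 4114 FPKM in Rec-1, and the protein-coding genes NCR3LG1 (0.997) and ZCCHC6 (0.995). NCR3LG1 was at 0.638, 4.63 and 3.91 FPKM in Jeko and 0.995, 6.44 and 6.62 FPKM in Rec-1, and ZCCHC6, a terminal uridylyltransferase, at 2.73, 6.18 and 5.52 FPKM in Jeko and 3.66, 6.65 and 7.26 FPKM in Rec-1. With 6 libraries that share a group structure these values are a description.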

How the data were processed

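RNA was measured by RNA-seq in 6 libraries of 2 cell lines. The authors deposited FPKM values (fragments scaled by gene length and mapped fragments), per the file headers, from an Illumina TruSeq RNA library, per the labels' protocols. TopHat and hg19 are named in the submitters' processing notes. The program that computed FPKM, its annotation, filters and use of strand are not given in the sources used here. Reads of a member, its host and near-identical copies therefore cannot be told apart with certainty. How short RNAs were scaled is not given either. At the depth of the Jeko control 1 fragment was worth 7.77 FPKM at 127 bases and 5.26 FPKM at 140 bases. That fall is steeper than length alone would give, so FPKM of members of unlike length are not directly comparable. The members and gene lists were chosen with earlier results of these data known.

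FPKM values were analysed as log2(FPKM + 1), which understates the change of genes with values near or under 1 FPKM. At the short members 1 FPKM is less than 1 fragment. There an estimated 1 fragment in the control against 0 gave large differences, such as -2.85 for SNORA36B in Rec-1 and -2.90 for SNORA16B in Jeko. All 11400 genes whose mean reached 1 FPKM went into limma (version 3.58.1, R version 4.3.3, eBayes with trend), two-sided, with p adjusted by the Benjamini-Hochberg method over all of them and a threshold of 0.05. The sgRNA effect had the line as covariate, and the interaction, guide and line contrasts had their own fits. Differences from the single control of a line have no test. The script was tested on simulated data.

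Classes by target come from background knowledge and symbol synonyms in RefSeq. Members were placed on GRCh37 with GENCODE v44lift37 by name, chromosome and length within 6 bases of RefSeq, which has another build and was used for names, lengths and neighbours alone. Hosts of placed members are on the same strand, and for the others strand was not checked. Relative depth came from the ratio that the most low genes (under 0.05 FPKM) share with the Jeko control, required of at least 10% of them. It lay between 0.687 (Rec-1 sgRNA 2) and 1.10 (Jeko sgRNA 2 and the control of Rec-1). In Rec-1 sgRNA 1 the commonest ratio was shared by 0.712%. Total depth is unknown. The estimate of fragments was added after the values were seen.

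Named members are those called in any fit, the 10 with the highest mean, the 5 with the largest smallest difference in each direction among those of 1 sign in all 4 comparisons, those above 0 in all 6 libraries and every Cajal body RNA. Members at 0 throughout a group are named where 5 or fewer. Members named outside this rule, the host comparison, its examples and the 3 sets of sequences were chosen after the values were seen. Alternatives were other pseudocounts, scalings, limits and thresholds, leaving out each library, and the guide number as a block. The rest used Python 3.11.15, pandas 2.3.3, scipy 1.17.1, Biopython 1.88, numpy 2.4.6 and matplotlib 3.10.9. Sequences are printed for a choice of the placed members, and those of 2 that had been chosen are not reported here.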

Additional observations from a re-analysis of the deposited data

Results flagged for a closer look

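The difference between sgRNA and control libraries differed between the lines at 13 members by limma's interaction test (adjusted p under 0.05), given here as the Rec-1 minus the Jeko difference on the log2(FPKM + 1) scale. It was -4.70 for SNORA49 and -2.85 for SNORA36B, a lower signed difference in Rec-1. It was 2.56 for SNORA8, 2.68 for SNORA40, 2.89 for SNORA53, 2.90 for SNORA16B, 3.05 for SCARNA4, 3.20 for SNORA14A, 4.16 for SCARNA23, 4.47 for SNORA71C, 4.97 for SNORA16A, 5.0 for SNORA1 and 5.19 for SNORA71D, a higher signed difference in Rec-1. SNORA36B, SNORA16B and SCARNA4 were at 0 in all 4 sgRNA libraries, so their values compare the 2 controls alone. Each control is 1 library.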

How the results depend on the processing

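The count of 14 members that rose became 22 with a pseudocount of 0.1, where 0.342% of all tested genes passed. The count was 4 with no minimum mean (SNORA43, SCARNA1, SCARNA10 and SNORA48), against 0.0650% of all tested genes. It was 4, the same members, in a fit that takes guide numbers as a replicate block (0.0789% of all tested genes). It lay between 2 and 42 when 1 library was left out. In fits added after the values were seen it was 7 in the Jeko libraries alone (1 higher, 6 lower) and 42 in the Rec-1 libraries alone, each with 1 control. Of all 11400 tested genes 50 (0.439%) and 1284 (11.3%) passed there, and the 6 lower members in Jeko were at 0 with both guides against a low single control value. All 14 kept their direction in all 12 alternatives. The interaction count of 13 was 5 with a pseudocount of 10, 5 with no minimum mean and 6 with a minimum of 5 FPKM, and between 5 and 13 without 1 sgRNA library. The line count of 24 was 15 with no minimum mean and between 6 and 24 without 1 library. Of all tested genes 3.96% passed for the interaction with a pseudocount of 10, 4.29% with no minimum mean and 3.89% with a minimum of 5 FPKM. The share of members was thus near that of all tested genes in the first 2 of these settings. For the line 16.0% of all tested genes passed with no minimum mean. The guide count was 0 in every alternative. The count of 57 members 2-fold from the Jeko control in both guides (48 higher, 9 lower) was 31 with a pseudocount of 10. Deviations of same-numbered guides correlated between lines at 0.10 over tested genes and 0.091 over members, so the numbers were not taken as pairs. The block left the interaction at 9 members and the line count at 22, against 3.75% and 23.2% of all tested genes. The cause of these changes was not tested.

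Of 82 named members, 15 changed the sign of the sgRNA difference somewhere, none of them among the 14. With a pseudocount of 10 it was 0.06 for SCARNA23 and 0.23 for SNORA1. Leaving out 1 library gave values for SCARNA14 from -2.75 to 1.61, SCARNA17 from -0.10 to 0.69, SCARNA23 from -3.01 to 1.15, SCARNA27 from -1.22 to 1.98, SCARNA8 from -1.40 to 2.04, SNORA1 from -3.01 to 1.99, SNORA10 from -0.02 to 0.96, SNORA25 from -0.97 to 0.42, SNORA29 from -3.94 to 0.47, SNORA44 from -0.08 to 1.48, SNORA5B from -0.03 to 0.48, SNORA5C from -1.44 to 0.93, SNORA62 from -1.14 to 0.09, SNORA64 from -1.22 to 2.02 and SNORA76C from -1.46 to 0.75. With 42 of 66 members at 0 or 1 estimated fragment in the Jeko control, differences between low members were not resolved at this depth.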
